A study of Mus musculus with 10 samples.

Results

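The 5 libraries described here are the floxed controls among the 10 RNA-seq libraries of a mouse leukemia study. They were chosen by their genotype label, Nup214fl/+, in which 1 copy of Nup214, which encodes a nuclear pore protein, carries loxP sites, with no Cre recombinase in the label. Every library came from bone marrow, in a mouse model where acute myeloid leukemia is driven by MLL-AF9, the fusion of the histone methyltransferase MLL with the elongation cofactor AF9. Leukemia stem cells were sorted as c-Kit+, CD16/32+ and CD34+ and as negative for Sca-1 and for lineage antigens. The lineage antibodies, the age of the mice and the way MLL-AF9 was introduced were not found in the labels. The labels name the cell type as hematopoietic stem cell. They do not say whether the libraries came from separate mice, so the spread between them can be partly technical.

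MLL fusion proteins hold active chromatin over a set of developmental genes, the HOXA cluster and the cofactor gene Meis1 among them, and thereby keep myeloid progenitors dividing. The sort gate is that of the granulocyte and monocyte progenitor, a cell that makes azurophil granules, the first granules of the neutrophil lineage. Azurophil granules carry myeloperoxidase and a family of serine proteases. Secondary and tertiary granules, with cathelicidin and lactoferrin, are made later in neutrophil development.

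Promoters of the 4 azurophil granule genes given as markers of these cells are shown because these genes, led by Mpo and Elane, held the most reads of any functional class. The sequences are the 250 bases before each start site in RefSeq, build GRCm38.p6, on the strand of the gene. Capitals mark matches, on either strand, to 4 motifs. The motif AGGAAGT holds the core bound by ETS family factors such as the product of Spi1. The motif CAACGG is that of the factor encoded by Myb. The remaining motifs are TGTGGT, bound by Runt family factors such as that of Runx1, and TATAAA, the sequence of the TATA box. The capitals in Ctsg that are not AGGAAGT are the TATA box and Runt family motifs read on the other strand. TTGCNNAA (C/EBP) was also searched and matched none of the 4.
Mpo, chr11:87793534-87793783, plus strand: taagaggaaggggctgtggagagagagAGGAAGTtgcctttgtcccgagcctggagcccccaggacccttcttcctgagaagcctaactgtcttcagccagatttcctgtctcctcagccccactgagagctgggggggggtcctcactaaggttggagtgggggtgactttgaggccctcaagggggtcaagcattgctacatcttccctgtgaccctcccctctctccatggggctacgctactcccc
Elane, chr10:79886062-79886311, plus strand: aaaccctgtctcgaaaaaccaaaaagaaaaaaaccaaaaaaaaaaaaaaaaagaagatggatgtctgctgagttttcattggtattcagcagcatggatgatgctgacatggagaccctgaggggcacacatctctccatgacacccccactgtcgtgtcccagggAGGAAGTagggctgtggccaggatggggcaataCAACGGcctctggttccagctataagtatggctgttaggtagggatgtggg
Prtn3, chr10:79879417-79879666, plus strand: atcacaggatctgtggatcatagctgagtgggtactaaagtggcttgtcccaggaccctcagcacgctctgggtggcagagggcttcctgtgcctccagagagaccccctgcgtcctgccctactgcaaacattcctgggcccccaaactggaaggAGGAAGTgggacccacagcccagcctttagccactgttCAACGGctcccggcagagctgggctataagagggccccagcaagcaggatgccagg
Ctsg, chr14:56102575-56102824, minus strand: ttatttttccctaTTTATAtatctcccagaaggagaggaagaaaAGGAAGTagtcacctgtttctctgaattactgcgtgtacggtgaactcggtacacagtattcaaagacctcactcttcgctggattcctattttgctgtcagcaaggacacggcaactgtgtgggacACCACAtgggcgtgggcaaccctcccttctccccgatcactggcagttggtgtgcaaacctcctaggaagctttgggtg

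AGGAAGT was present in all 4 of these promoters, 217 to 223 bases before the start of Mpo, 78 to 84 before Elane, 88 to 94 before Prtn3 and 200 to 206 before Ctsg. CAACGG occurred in Elane and Prtn3, which are neighbors on chromosome 10, at 46 to 51 and 51 to 56 bases before the start. Of 32851 promoters of this length in the RefSeq table, 7.69% held AGGAAGT, against 10 of 27 promoters (37.0%) of the azurophil granule genes and 6 of 21 (28.6%) of the secondary and tertiary granule genes. TTGCNNAA was in 9.56% of all promoters and in 3 of 27 (11.1%) of the azurophil granule promoters. It was in 7 of 21 (33.3%) of the secondary and tertiary granule promoters. CAACGG was in 4.05% of all promoters, and in 2 of 27 azurophil and 0 of 21 secondary and tertiary granule promoters. The Runt family motif was in 14% of all promoters, and in 7 of 27 and 3 of 21 on these lists. The TATA box was in 12.4% of all promoters, and in 5 of 27 and 2 of 21. The motifs were picked after the sequences above had been seen. The 27 azurophil granule promoters are those of 21 genes, the 4 shown among them, so the 37.0% is partly set by that choice. A match is a description only, and no binding was measured. Transcripts of Mpo, Elane and Prtn3 in GENCODE begin upstream of the RefSeq starts. The GENCODE starts are 87793581 on chromosome 11 for Mpo, and 79886247 for Elane and 79874476 for Prtn3 on chromosome 10. The windows of Mpo and Elane thus lie partly, and that of Prtn3 wholly, inside the gene as annotated there. The CAACGG of Elane is in the part inside the gene.

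Values are read counts that the authors divided by a single factor per library and are called normalized reads. Values of the 5 libraries are always given in the order of libraries 1 to 5, and ± is the SD over these 5 (n = 5). Recovered depth ran from 20.8 to 30.1 M reads, and 26913 to 30277 genes had a read. Of 52171 genes in the table, 20154 had a read in all 5 libraries. Those with a mean of at least 100 numbered 8969 and held 99.2% of the reads. Levels of different genes are compared only as normalized reads per kilobase of exon. Nup214 itself read 867, 908, 984, 811 and 959, with a coefficient of variation (CV, the SD over the mean) of 7.7%.

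Few genes held most of the reads. The 119 genes with the most reads held 50% of the total, the first 20 held 25.6%, the first 10 held 18.4%, and 2889 genes were needed for 90%. Mpo, the myeloperoxidase gene, was first, with 3.52 ± 0.508% of all reads, and Elane, the neutrophil elastase gene, was second with 3.17 ± 0.209%. After them came Actb, S100a8, Chil3, Eef1a1, Hmgn2, mt-Co1, Ngp and S100a9. Per kilobase the order changed, because Elane has 984 bases of exon and Mpo 3424. Elane was then first with 887425 ± 66645 normalized reads per kilobase, followed by S100a8 with 773657 ± 129398 and S100a9 with 521507 ± 58925. Camp (328826 ± 86501), Mpo (283548 ± 41809) and Actb (267732 ± 12143) followed. Camp, Mpo and Actb differed from each other by less than the SD of Camp, so their order per kilobase is not settled by these libraries. S100a9, in contrast, lay above Camp in its mean by more than the larger of their SDs.

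**Figure D1:**
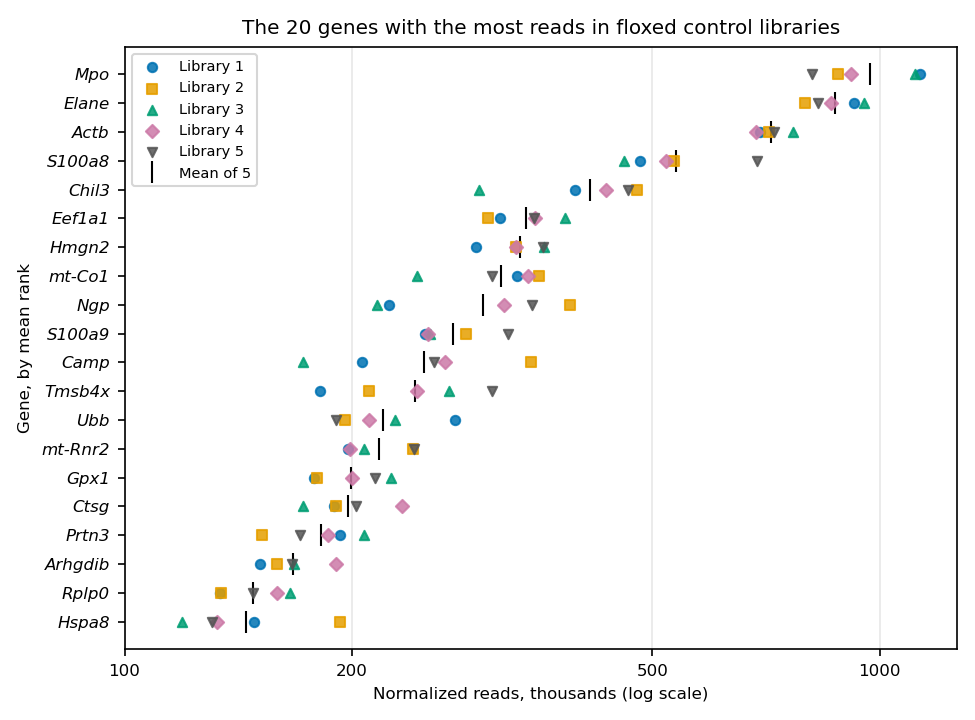
The 20 genes with the most reads, by mean rank, with normalized reads (axis in units of 1000) on a log axis, 1 symbol per library and a bar at the mean of 5. Mpo ranges from 813165 to 1130912 normalized reads, Camp and Ngp are lowest in library 3 and highest in library 2, and Actb varies least, with a CV of 4.54%.

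The 25 genes listed here as azurophil granule genes held 10.6 ± 0.624% of the reads, more than any of the other 29 classes. The list includes Hp and Anxa1, and where the proteins are stored was not measured. Per kilobase the order turned, with 13.7 ± 0.816% for azurophil granule genes and 17.2 ± 2.42% for secondary and tertiary granule genes. The latter list includes S100a8 and S100a9. The azurophil shares of reads were 11.5, 10.1, 11, 10.4 and 10.1% by library. All 25 members had a read and 23 had a mean of at least 100. The peroxidase gene and the 3 serine protease genes named above led the class. Mpo read 1130912, 881294, 1113633, 915338 and 813165 normalized reads, and Elane read 925458, 796831, 953583, 862477 and 827782. In both genes libraries 1 and 3 were the high ones. Prtn3, the proteinase 3 gene, read 193128, 151939.9, 207816, 185675 and 170846 and was also highest in library 3. Ctsg, the cathepsin G gene, read 189666, 190808, 172318, 232954 and 202463 and was lowest in that library and highest in library 4. CVs were 14.7% for Mpo, 7.51% for Elane, 11.8% for Prtn3 and 11.4% for Ctsg, against a median of 11.5% over all genes with a mean of at least 100. Counting error alone would give 0.104% to 0.239% for these 4. Reads from the overlap of Prtn3 with Plppr3, on the opposite strand, cannot be assigned, since the labels do not describe a stranded protocol.

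The rest of the azurophil class ranged widely in spread. Hp, the haptoglobin gene, averaged 105067 ± 7621 and Srgn, the serglycin proteoglycan that packs granule proteases, averaged 102871 ± 11629.8. Serpinb1a, an inhibitor of these proteases, averaged 69421 ± 8131. Prss57, a further granule serine protease gene, varied little, with 17785, 16226, 18366, 19086 and 16481 (CV 6.94%). Lyz2, the lysozyme gene, read 46499, 65514, 26462, 67477 and 81517 and had a CV of 37.2%, or 22.1% without library 3. Its value in library 3 was the lowest, and libraries 2, 4 and 5 were above libraries 1 and 3. Anxa1, an annexin of anti-inflammatory signaling, read 2611, 4220, 1183, 5082 and 2980 and was likewise lowest in library 3. Cst7, the cystatin F gene, was lowest in library 3 as well, with 475, 943, 255, 652 and 369. Of the 23 members with a mean of at least 100, 8 had a CV of at most 10%, called low spread here, and none had one of at least 50%, called high spread. Among all 8969 genes of that level, 38.5% were of low spread and 0.814% of high spread.

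Secondary and tertiary granule genes held 7.73 ± 1.21%, with shares of 7.07, 8.9, 6.14, 7.6 and 8.95% by library. Library 3 had the lowest share, and libraries 2 and 5 the highest. S100a8 and S100a9 encode the subunits of calprotectin, a metal-binding antimicrobial protein. S100a8 read 482032, 533898, 458551, 521959 and 688149 and S100a9 read 249797, 283124, 254047, 252509 and 321657, both highest in library 5. Chil3, a chitinase-like lectin gene, read 394872, 477423, 294447, 434618 and 463479.7. The cathelicidin gene Camp read 206554, 344937, 172477, 265652 and 256629.7, and Ngp, a cystatin-like granule protein gene, read 223791, 389071, 215743, 317790.2 and 346877. These 3 genes were highest in library 2 and lowest in library 3. Ltf, the lactoferrin gene, read 1331, 4055, 593, 4057 and 3457, which spans a larger ratio, with a CV of 60.2%. It was the single member of high spread among the 22 with a mean of at least 100 (4.55%, against 0.814% of all such genes). Of the 22, 5 were of low spread (22.7%, against 38.5%). Without library 3 its CV was 40.1%. Lcn2, the iron-siderophore binding lipocalin, read 6976, 7854, 6368, 12425 and 10466, with the high values in libraries 4 and 5.

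Not every granule gene followed that order. Olfm4, the olfactomedin 4 gene, read 50807, 23875, 15422, 42148 and 33190 and was highest in library 1. Fcnb, a ficolin gene, read 111957, 107065, 114692, 97477 and 105116 and differed little between libraries, with a CV of 6.21%. Levels differed widely among markers of mature neutrophils. Retnlg, a resistin-like product of mature neutrophils, read 5.95, 0, 9.37, 4.17 and 18.3, and the collagenase gene Mmp8 read 4.96, 2.77, 9.37, 11.5 and 17. Per kilobase Camp had 328826, Ltf 782, Retnlg 12.8 and Mmp8 3.76. Cxcr2, the chemokine receptor gene of circulating neutrophils, averaged 203 ± 81.8. Retnlg and Mmp8 were the 2 of the 18 genes on the mature neutrophil list that averaged under 10, while 15 had a mean of at least 100. The summed level of the list ran from 1149562 to 1686600. In bulk libraries a change in the number of cells of a kind and a change in RNA per cell cannot be told apart.

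Cytosolic ribosomal protein genes held 7.82 ± 1.09%, with 6.65, 6.86, 9.33, 8.02 and 8.23% by library. Libraries 1 and 2 had the low shares and library 3 the highest. Only 3 of the 84 members with a mean of at least 100 were of low spread (3.57%, against 38.5% of all such genes), and their median CV was 19%. Rpl37a read 16011, 17557, 33190.2, 22801 and 27895, Rpl36 read 8568, 9368, 17789, 12834 and 14613 and Rps21 read 1218, 1354, 2505, 1672 and 2046, the same order of libraries in all of them. Rplp0, the stalk protein gene with the most reads of the class, varied less, with 133698, 134033, 165477, 159047 and 148075 (CV 9.71%). The median deviation of a member from its own mean over the 5 libraries, on the log2 scale, was -0.28, -0.24, 0.361, 0.0961 and 0.0714. These genes have many processed copies that can share reads, and their longest transcripts are short, with a median of 1100 bases. Over all genes the shortest of 10 equal bins by length, with a median of 964 bases, deviated by -0.16, -0.10, 0.14, 0.06 and 0.03 in the 5 libraries on the same scale. The part of transcript length in the spread of these genes was not tested.

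Other parts of the translation and protein machinery varied less. Translation factor genes held 2.43 ± 0.14%. Of the 41 members with a mean of at least 100, 21 were of low spread (51.2%, against 38.5% of all such genes). Eef1a1, which delivers aminoacyl tRNA to the ribosome, read 313892, 303099, 382555, 350057 and 348914. Nuclear genes of the respiratory chain held 1.29 ± 0.0701%, mitochondrial ribosomal protein genes 0.26 ± 0.0156%, and tRNA synthetase genes 0.273 ± 0.0157%. Proteasome subunit genes held 0.548 ± 0.0272% and had the largest fraction of low spread among the classes with 10 or more measured members, 33 of 48 (68.8%). Psmd2, a regulatory particle subunit gene, read 6891, 6955, 6574, 7262 and 6646. Psma5, a core subunit gene, read 3437, 3718, 3486, 3716 and 3400.5. The highest library was 1.1 times the lowest in Psmd2 and 1.09 times in Psma5. Splicing factor genes, 26 of 55 of low spread (47.3%, against the same 38.5%), had the steadiest share of the larger classes, 1.26 ± 0.0214%.

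Actin and tubulin cytoskeleton genes held 7.71 ± 0.149%, and the library shares ran only from 7.59 to 7.95%. Actb, cytoplasmic beta-actin, read 694844, 712970.4, 768238, 684883 and 725337. Tmsb4x, the thymosin that holds actin monomers, read 181589, 210934, 269152, 244122 and 306806 and was highest in library 5. Its relative Tmsb10 read 674, 428, 2079.8, 987 and 901 and was highest in library 3, with a CV of 62.5%. Without library 3 that CV was 33.6%. Glycolysis genes held 2.31 ± 0.14%. Eno1, the enolase gene, read 115369.6, 112241, 115587, 112467 and 106656 (CV 3.21%), among the least variable of the genes with more than 100000 normalized reads. Gapdh, the glyceraldehyde phosphate dehydrogenase gene often used as a reference, read 90806, 68617, 101318, 112789.5 and 86556 and had a CV of 18%.

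Chaperone genes held 2.22 ± 0.176%, highest in library 2. Hspa8, the constitutive cytosolic chaperone, read 148434, 192944, 119058, 132644 and 130529 and was also highest there. High mobility group and chromatin genes held 1.97 ± 0.126%, most of it from Hmgn2, a nucleosome-binding protein gene with 291854, 330124, 359131, 330227 and 358246. Redox defense genes held 1.68 ± 0.0922%, led by the glutathione peroxidase gene Gpx1 with 178248, 179703, 225638, 199891 and 214505. Genes of cell division were detected throughout. All 50 mitosis genes and all 50 DNA replication genes had a mean of at least 100, with shares of 0.918 ± 0.0543% and 0.606 ± 0.034%. Mki67, a marker of dividing cells, read 3438, 4555, 3781, 3331 and 3763, and Top2a, the topoisomerase of chromosome segregation, read 15023, 14743, 12265, 12289.8 and 12181. Mcm6, a helicase subunit of the replication fork, read 18144, 17666, 15741, 20344 and 18205. None of these 100 genes was of high spread, and 50 were of low spread, against 0.814% and 38.5% of all 8969 genes of that level.

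**Figure D2:**
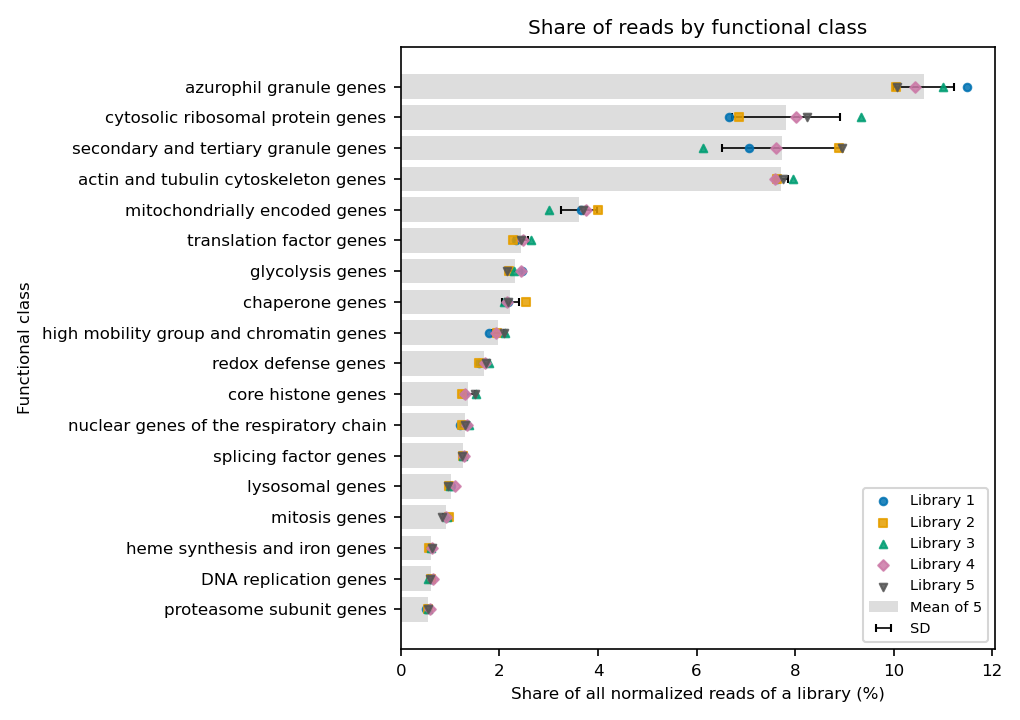
Share of all normalized reads of a library, in percent, for the functional classes with a mean share of at least 0.5%, with bars at the mean of 5, error bars of 1 SD and 1 symbol per library. Azurophil granule genes lead with 10.6%, library 3 is high for ribosomal protein genes and low for secondary and tertiary granule genes, and the cytoskeleton share hardly moves.

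Genes of the mitochondrial genome held 3.62 ± 0.366%, lowest in library 3 with 3.01%. The oxidase subunit gene mt-Co1 read 330915, 353601, 243622, 342260.3 and 306725, and mt-Rnr2, the large ribosomal RNA, read 197422, 241055, 207679, 198561 and 241406. A further 1.06 ± 0.128% of reads was listed under 6 predicted pseudogenes on chromosome 1, from 24611535 to 24616197, in a stretch that resembles mitochondrial DNA. Reads of near-identical copies cannot be divided with certainty between this stretch and the mitochondrial genome. The 30 classes together covered 1706 genes and 57.5 ± 0.915% of reads.

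Genes tied to MLL fusions were mostly detected at moderate levels. The panel of 30 holds targets of the fusions together with MLL itself, its partner and its cofactors (Kmt2a, Mllt3, Men1, Dot1l and Psip1). Of the 30, 20 had a mean of at least 100 and 3 were under 10. The 20 had a median CV of 12.9%, against 11.5% over all genes of that level. None of the 20 was of high spread, while of all such genes 0.814% were of high and 38.5% of low spread. The 2 of low spread among the 20 were Hoxa9, a target, and Men1, a cofactor. Cdk6, a cell cycle kinase gene, held the most reads of the panel, with 63375, 46564, 54909, 54414 and 45513 normalized reads. Hoxa9, the homeobox gene on which these leukemias are known to depend, read 4636, 5004, 4595, 4422 and 4942. Its CV of 5.21% lay below the 10th percentile of all measured genes, 5.87%. Per kilobase the 7 genes of the homeobox cluster on the panel ran from 846 ± 44 for Hoxa9 and 534 ± 85.1 for Hoxa10 through 171 ± 22.1 for Hoxa7 and 115 ± 13.4 for Hoxa5 to 30 ± 9.34 for Hoxa6, 15.8 ± 2.45 for Hoxa3 and 0.611 ± 0.844 for Hoxa11. Each neighboring pair in that order was separated by more than the larger of the SDs.

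Meis1, the DNA-binding partner of HOXA9, read 4348, 3689.6, 2919, 2971 and 2794, highest in library 1. Pbx3, the other common partner, read 24.8, 36, 17.8, 38.6 and 51.1 and was low in every library. Mef2c, a transcription factor gene of myeloid progenitors, read 6191, 4603, 5756, 4973 and 5319. Myb, which encodes a factor needed for self-renewal, read 5577, 6760.2, 6528, 7013 and 7413, and Myc, a growth regulator, read 4761, 4042, 5272, 3976 and 4543. The highest library was 1.56 times the lowest in Meis1, 1.35 times in Mef2c and 1.33 times in Myc. Eya1, a phosphatase and coactivator gene, averaged 3321 ± 386. Flt3, a cytokine receptor gene, averaged 17.3 ± 8.22. Men1 and Dot1l, which encode the cofactor menin and a histone methyltransferase recruited by the fusion, averaged 719 ± 33.6 and 412 ± 66.5. Mllt3, the mouse gene of AF9, averaged 10.1 ± 3.1 and Kmt2a, the gene of MLL, 513 ± 76.2. Whether reads of the fusion itself could be counted to either gene is not stated in the labels.

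Among 30 myeloid transcription factor genes, 20 had a mean of at least 100, with a median CV of 21.7%. Spi1, which encodes PU.1, read 14904, 10898, 18312, 14459.5 and 10738. Cebpe, the C/EBP family factor of granule maturation, read 9457, 5637, 11884, 4773 and 4543. Both were highest in library 3 and next highest in library 1, and Cebpe had a CV of 44.9%. Per kilobase Cebpe (5849 ± 2624) and Spi1 (5144 ± 1170.2) did not differ beyond their SDs and stood above the other C/EBP genes described here. Cebpd had 518 ± 107 per kilobase, Cebpb 112 ± 65.8 and Cebpa 52 ± 16. Cebpa, the factor that starts granulocyte development, read 134, 110, 209, 128 and 103, with a single high value in library 3. Cebpb, the factor of emergency granulopoiesis, read 101, 101, 329.9, 112 and 195 and was of high spread, again highest in library 3. Its CV was 59%, and 35.9% without that library. Without library 3 the CV of Cebpa fell from 30.8% to 12.2%, and without library 1 that of Cebpe was 51.9%, past the high threshold. Spi1, Cebpe, Cebpa and Cebpb have GC contents of 58.9, 61.5, 62.6 and 67.2%. Genes of 57.1% or more form the richest of 10 equal bins by GC. In that bin library 3 deviated by a median of 0.24 on the log2 scale. The part of GC content in the Cebpa and Cebpb values was not tested.

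Irf8, the interferon regulatory factor that directs progenitors toward monocytes and dendritic cells, read 1532, 493, 760.1, 595 and 638. Library 1 stood apart from the other 4, and the CV was 52%. Without library 1 the CV was 17.8%, and without library 2 it was 49.9%. Gfi1, which encodes a transcriptional repressor that acts in granulocyte development, read 441, 667, 712, 691 and 608 and was lowest in library 1. Fli1, an ETS factor gene, and Ikzf1, the Ikaros gene, were the 2 factors of low spread, with 4121, 4728, 4270.3, 4602 and 4452 and 3639, 3849, 4167, 4177 and 4173. Lyl1, a helix-loop-helix factor gene, read 7345, 4528, 8168, 5239 and 4079 and was high in libraries 1 and 3, like Cebpe. Its GC content of 62.6% places it in the same richest bin. Gata1, the factor of red cell and platelet lineages, was listed at 0 in 4 libraries and at 1.98 in library 1. Klf4, a factor of monocyte development, averaged 1.69 ± 2.76.

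Transcripts of the positive sort antigens were detected in all 5 libraries. Kit, the stem cell factor receptor gene, read 2209, 1825, 2820.3, 1887 and 1822. Fcgr3, which encodes CD16, read 9972, 11112, 6177, 13844 and 8444, and Fcgr2b, which encodes CD32, read 3784, 3509, 2989, 3473 and 2764. Cd34, a sialomucin gene, read 409.7, 169, 172, 178 and 265 and was highest in library 1. Ly6a, the gene of Sca-1, against which cells were sorted, read 244, 206, 254, 189.9 and 187. Per kilobase, Fcgr3 had 5708 ± 1655, Fcgr2b 571 ± 71.8, Kit 237 ± 47.9, Ly6a 179 ± 25.7 and Cd34 32.8 ± 14.2, so the transcript of the excluded antigen lay above that of Cd34 by more than their SDs. Transcript levels do not report surface protein. Of other lineage antigens, Itgam (CD11b) averaged 6546 ± 1031 and Ly6g 66.8 ± 14.6.

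Of 20 myeloid cytokine receptor genes, 15 had a mean of at least 100, none of high spread, against 0.814% of all genes of that level. Ifngr1, an interferon gamma receptor chain gene, held the most reads of the list, with 23258, 22442, 23411, 29861 and 22293, and library 4 was highest. Csf3r, the granulocyte colony-stimulating factor receptor gene, read 3836, 3584, 3102, 3606 and 3002. Csf2ra, the alpha chain gene of the GM-CSF receptor, read 5747, 3005, 6559, 3903 and 3757 and was high in libraries 1 and 3. Epor, the erythropoietin receptor gene, averaged 0.679.

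The given markers of these cells were all detected. Markers of blood stem cells were mixed, against the label hematopoietic stem cell. Of 18 stem and multipotent progenitor genes, 5 had a mean of at least 100, led by Meis1, Cd48 and Mecom, and 6 were under 10. Procr, the endothelial protein C receptor gene of long-term stem cells, read 5.95, 0, 0.937, 0 and 3.93, and Slamf1 (CD150) read 86.3, 41.6, 23.4, 28.2 and 48.5. Mecom, a stem cell transcription factor gene, read 374, 195, 386, 274 and 414. Cd48, a gene of more mature progenitors, read 612, 525, 582, 667 and 593. The cells are therefore called by their gate here.

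Markers of other lineages were mostly at or near 0. Of 16 erythroid genes 15 averaged under 10, and the summed list ran from 97.9 to 164 normalized reads. The alpha-globin gene Hba-a2 read 30.8, 3.7, 2.81, 4.17 and 0, with the highest value in library 1. Of 17 B cell genes 14 averaged under 10. The exceptions included Ighm, the immunoglobulin mu constant gene, with 4178, 3351, 4153, 3811 and 5429, and Cd79b with 1016, 1014, 1319, 1132 and 1146, while Pax5 averaged 2.95. T cell genes summed to 225 to 345, and Trbc2 was listed at 0 throughout. Of 10 NK cell genes 9 averaged under 10, and Nkg7, a granule membrane gene, made up nearly all of that list with 29564, 26399, 32470.3, 28204 and 26365. Siglecf, an eosinophil marker, read 3466, 4038, 2938, 3811 and 2165, whereas the eosinophil peroxidase gene Epx averaged 2.65 and Prg2 averaged 42.3.

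Endothelial genes summed to 517 to 821, most of it Pecam1, and Cdh5 averaged 2.25. Stromal genes summed to 99.4 to 174, and Col1a1 averaged 2.27. Megakaryocyte and platelet genes summed to 313 to 456, and mast cell and basophil genes to 106 to 189. Monocyte and macrophage genes, 9 of 18 with a mean of at least 100, summed to 5839 to 7637. F13a1, the coagulation factor XIII gene of monocytes, read 1861, 1930.3, 904, 2168 and 2668 and was lowest in library 3. Adgre1 (F4/80) read 1764, 1631, 1485, 1793 and 1741 and hardly varied, and Marco, a macrophage scavenger receptor gene, was listed at 0 in all 5.

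Over the 8969 genes with a mean of at least 100, the median CV was 11.5%, and the range from the 10th to the 90th percentile was 5.87 to 23.7%. At a mean of 100 counting error alone gives a CV of 10.2%, and 381 genes lay at or below their counting CV. High spread, a CV of at least 50%, was met by 73 genes (0.814%), and low spread, a CV of at most 10%, by 3451 (38.5%). Both counts differed between levels, without a steady trend. Between means of 100 and 300, 44 of 2610 genes (1.69%) were of high spread and 20.8% of low spread. In the bins that began at 300, 1000, 3000 and 10000, high spread was met by 0.442, 0.367, 0.708 and 0.57%. Low spread was met by 41.6, 51.1, 53.5 and 40.7%. Itga1, Yrdc and Hdc lay just inside the high threshold with CVs of 50.1, 50.2 and 50.2%, and without library 1 the first and second had 24.3 and 31.4%. Cst7 and Cacna1b lay just outside it, both at 49.9%. Stxbp2 and Gps1 were the last genes inside the low threshold and Rexo4 and Zmat5 the first outside it, all at 10%.

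**Figure D3:**
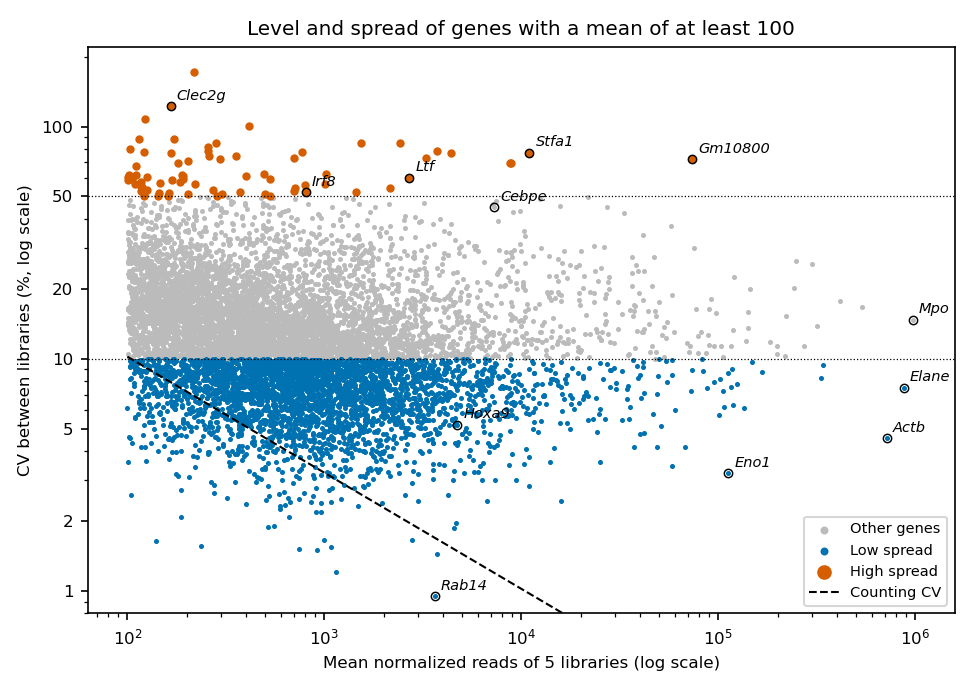
CV between the 5 libraries, in percent, against mean normalized reads, both on log axes, for the 8969 genes with a mean of at least 100. Orange points are the 73 genes of high spread, blue points the 3451 of low spread, dotted lines the thresholds at 10 and 50%, and the dashed line the CV that counting error alone gives.

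Of the 73 genes of high spread, 29 had predicted or clone names and 44 had gene names. Library 1 held the highest value in 24 of the 29 and library 3 in 19 of the 44, whereas over all 8969 genes library 1 was highest in 14.5% and library 3 in 22.8%. A single library decided the call for most of the 73, since 11 of them had a CV of at least 50% whichever library was left out. A family among them was the stefin A genes, which encode inhibitors of cysteine proteases. All 4 members with a mean of at least 100 were of high spread, against 0.814% of all such genes. Stfa1 (chromosome 16, 36276951 to 36285373) read 6628, 5909, 25382, 11807 and 5107 normalized reads. Cstdc5 read 5747, 5139, 18784, 10073 and 3892. Library 3 was highest and library 4 second in both, with the other 3 close together. Cstdc4 read 363, 395, 1592, 686 and 468 and Stfa2l1 read 57.5, 51.7, 250.3, 88.7 and 69.4, again highest in library 3 and next in library 4. The copies of this cluster are near-identical, so the division of reads among them is uncertain. Their sum, 12796, 11496, 46008, 22654 and 9536, does not depend on the division among these 4 and had a CV of 73.8%. The whole class of 11 genes held 0.0737% of reads and these 4 held 0.0736%. How reads that match several copies were counted is not described, and reads left out for that reason would change the sum. Without library 3 the CVs were 41.1% for Stfa1, 43.2% for Cstdc5, 30.4% for Cstdc4 and 24.4% for Stfa2l1.

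Immediate early genes are induced within minutes of a stimulus. They gave 3 genes of high spread among 17 with a mean of at least 100 (17.6%, against 0.814% of all such genes). Fos, an AP-1 subunit gene, read 779.8, 532, 232, 721 and 1282. Dusp1, a phosphatase gene of MAP kinases, read 351, 406, 187, 521 and 1005, and Dusp6, its relative specific for ERK, read 69.4, 117, 93.7, 83.5 and 232. All 3 were highest in library 5, and Fos and Dusp1 were lowest in library 3. Jun, the AP-1 partner of Fos, read 2232, 944, 642, 1018 and 1637 and was highest in library 1 instead. Without library 5 the CVs were 43.5% for Fos, 37.8% for Dusp1 and 22.2% for Dusp6, and without library 3 that of Fos was 38.6%. Dusp1 overlaps Ergic1 on the opposite strand, whose CV was 5.73%. The inducible chaperone Hspa1a, at 311, 438, 443, 23 and 65.5, did not follow these genes. Its libraries 1 to 3 lay above libraries 4 and 5, and its CV of 78.5% was the only high one among 48 chaperone genes. It remained at 56.3% or more without any single library.

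Histocompatibility class I genes gave 2 of high spread among 11 with a mean of at least 100 (18.2%, against 0.814% of all such genes). H2-Q4 read 431, 238, 175, 113 and 58.9 and H2-Q2 read 394, 180.2, 141, 127 and 62.9, both nonclassical class I genes and both highest in library 1 and lowest in library 5. Without library 1 their CVs were 53.1 and 38.1%. The classical genes H2-D1 and H2-K1 were also highest there, with 56853, 35664, 38146, 46029 and 31813 and 35191, 21852, 22689.8, 27159 and 19372. B2m, the shared light chain gene, read 49440.1, 53962, 41177, 57234 and 55913, without that order. Reads of class I genes can be shared between paralogs.

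Among genes that macrophages also express, Vcam1, an adhesion receptor gene, read 765, 155, 198, 482 and 178 and C1qb, a complement chain gene, read 118, 42.5, 109.7, 200.4 and 56.3. Vcam1 was highest in library 1 and C1qb in library 4. The CV of C1qb was 46.3% without library 4 and 49.1% without library 2, while that of Vcam1 was 60.6% without library 1. The sum of the complement genes C1qa, C1qb and C1qc was 230.2, 82.2, 217, 354 and 124. Cd68, a lysosomal gene of the same cells, read 706, 503, 557, 809 and 728. Across the monocyte and macrophage list the summed level stayed within the range given above, and the part of such cells in the Vcam1 and C1qb values was not tested. For Irf8, likewise of high spread, the list of 12 dendritic cell genes summed to 705 to 1848, with Irf8 itself the single member at a mean of at least 100 and 5 members under 10. Its next members, H2-Ab1 and Cd74, read 93.3, 80.4, 62.8, 175 and 86.5 and 109, 48, 58.1, 142 and 87.8, both highest in library 4. The part of dendritic cells in the Irf8 values was not tested.

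Single genes of large spread followed no class. Clec2g, a C-type lectin gene, read 21.8, 2.77, 507, 152 and 144, the largest CV among the 44 with gene names (122%). Clec11a, a secreted growth factor gene of the marrow, read 71.4, 44.4, 48.7, 90.8 and 356, and library 5 stood apart. Its CV was 108%, and 33.7% without library 5. Dmrtb1, a DM-domain factor gene known from the testis, read 1398, 258, 5756, 2324 and 2334, from low in library 2 to high in library 3. Sec16b, a gene of vesicle export, read 605, 109, 992, 454 and 498, and Fhdc1, a formin-related gene, read 149, 27.7, 217, 64.7 and 91.7, both in the same extremes as Dmrtb1. Slco4c1, an organic anion transporter gene, read 184, 375, 50.6, 151 and 202 and Hdc, the histidine decarboxylase gene, read 480.2, 943, 245, 608 and 379. These were high in library 2 and low in library 3, as were Camp and Ngp. CVs of Clec2g, Dmrtb1 and Fhdc1 stayed at 51.8% or more without any single library, while that of Sec16b was 38.4% without library 2. That of Slco4c1 was 45.9% without library 2 and 44% without library 3. For Hdc the values were 36 and 40.8%.

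**Figure D4:**
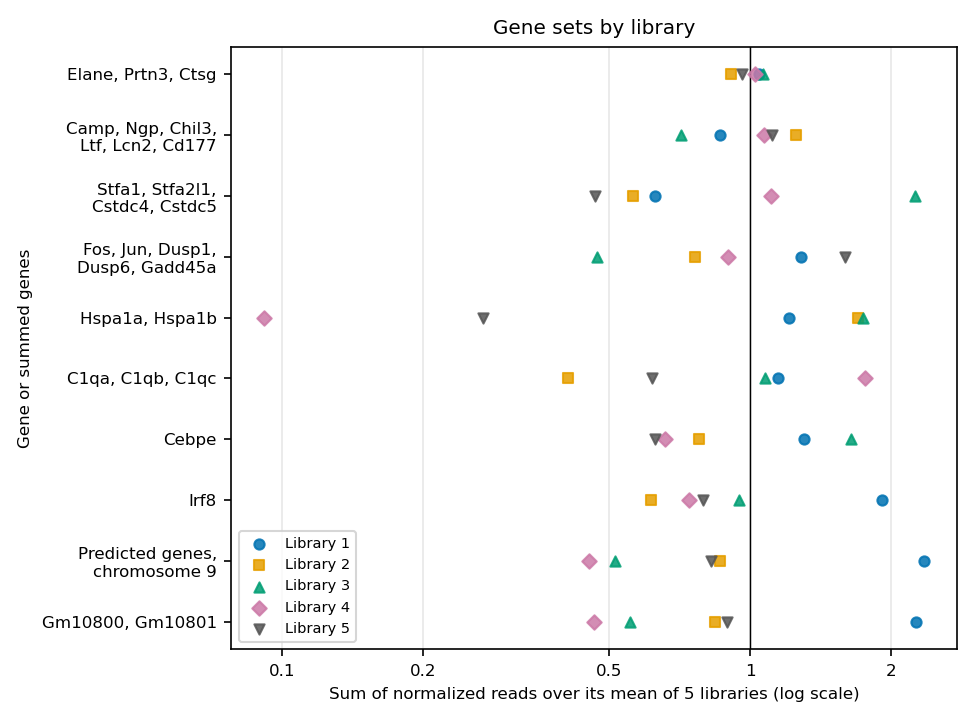
Summed normalized reads of gene sets, or of a single gene, in each library over the mean of the 5 libraries, on a log axis. The proteases Elane, Prtn3 and Ctsg stay close to 1, stefin genes are high in library 3, Irf8 and the predicted genes of chromosomes 2 and 9 in library 1, and Hspa1a with Hspa1b low in libraries 4 and 5.

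Predicted genes of high spread included those of a pair of repeat-rich stretches, picked out after their values had been seen. On chromosome 9, 9 predicted genes between 3000922 and 3038316 were all of high spread, against 0.814% of all genes with a mean of at least 100. Their sum was 34224, 12565, 7488, 6601 and 12033. On chromosome 2 the sum of Gm10800 and Gm10801 was 185371, 69237, 45622, 38215 and 73283. Library 1 stood above the other 4 in both sums, and libraries 3 and 4 were the lowest. The second sum made up 0.683% of the reads of library 1 and 0.135% of those of library 4. Without library 1 the CV of Gm10800 was 30.5% and that of Gm10801 30.8%. A different case was Pagr1a, a subunit gene of a histone methyltransferase complex, which overlaps the predicted gene Gm42742 on the same strand of chromosome 7. Pagr1a read 84.3, 972, 992, 739.9 and 710 and Gm42742 read 887, 18.5, 14.1, 71 and 102. Library 1 was the low one for the first and the high one for the second, and the sum of both had a CV of 10.7%, against 52.5% and 172% separately. Without library 1 the CV of Pagr1a was 17.5% and that of Gm42742 82.8%.

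Genes of low spread came from many classes. Of the 3451, 392 belonged to one of the 30 classes, as did 13 of the 73 genes of high spread and 1039 of all 8969. The named genes with the smallest CVs were Rab14, Tyw1, Derl1, Manba, Tmem230, Nuak2, Slc35b3 and Bhlhb9. Rab14, a GTPase gene of endosome traffic, read 3646, 3682, 3588, 3647 and 3624, a CV of 0.952% where counting error alone gives 1.69%. Tyw1, a tRNA modification enzyme gene, read 1156, 1139, 1145, 1169 and 1134 (CV 1.2%). Derl1, a gene of protein export from the endoplasmic reticulum, read 3706, 3770, 3685, 3779 and 3817 (CV 1.45%). Of the 20 named genes with the lowest CVs, 18 lay at or below their counting CV, so their order among themselves is within counting error. At higher depth, where counting error is small, Actb and Eno1 had CVs of 4.54% and 3.21% against counting CVs of 0.12% and 0.304%. Mta2, a subunit gene of a nucleosome remodeling complex, read 4459, 4671, 4494, 4603 and 4541 (CV 1.86%, counting CV 1.51%).

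The base composition of transcripts moved with the differences between libraries. Over 8761 genes with a known GC content, library 3 deviated by a median of -0.16 on the log2 scale in the poorest of 10 equal bins by GC and by 0.24 in the richest bin. Library 2 went from 0.10 to -0.14 and library 5 from 0.04 to -0.13. Across these genes, which share their libraries and are not replicates, the deviation of library 3 correlated with GC content at r = 0.44, that of library 2 at r = -0.32 and that of library 5 at r = -0.27. Libraries 1 and 4 had r = 0.01 and 0.03. With transcript length in place of GC content, r was 0.16, 0.25, -0.18, -0.27 and 0.02 for libraries 1 to 5. Libraries 1 and 4 thus moved with length, though not with GC content. After each library was centered within these bins, the CV, computed from the SD of log2 values, of Spi1 went from 23 to 12.3%. For Cebpe it went from 45.2 to 35.3%, for Hmga1, an AT-hook chromatin protein gene, from 49.6 to 37.7%, and for Mpo from 14.7 to 12.6%. Stfa1 went from 73.8 to 79.6%, Irf8 from 45.8 to 47.5% and Ltf from 104 to 103%. The median over all these genes went from 11.5 to 10.6%, and the centering was chosen after the data had been seen.

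**Figure D5:**
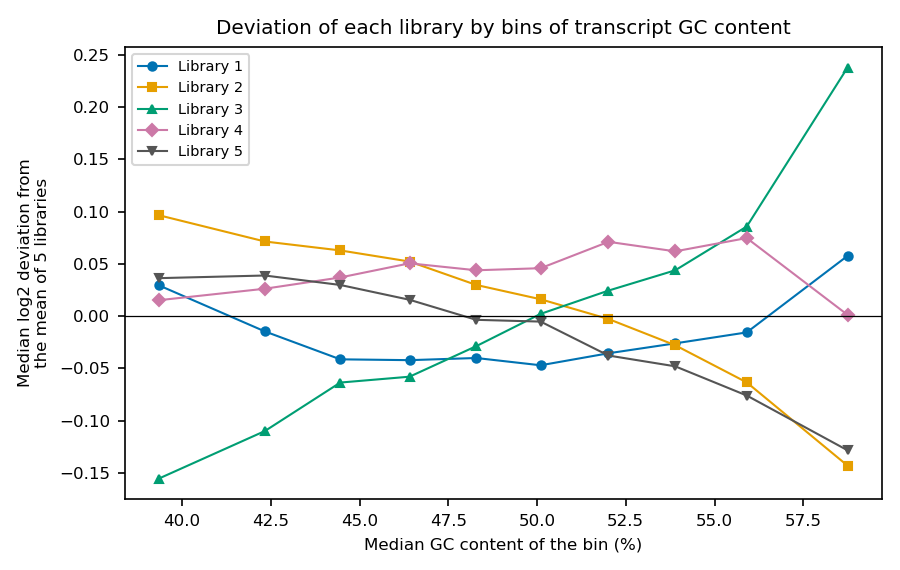
Median deviation of genes in each library from their mean over the 5 libraries, on the log2 scale, against the median GC content, in percent, of 10 equal bins of 8761 genes. Library 3 rises from -0.16 to 0.24 across the bins, while libraries 2 and 5 fall to -0.14 and -0.13.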

How the data were processed

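Gene expression was measured by RNA-seq of sorted mouse leukemia cells. Per the labels' protocols, RNA was amplified by Geo-seq, a method for few cells, and made into libraries with a transposase kit. Molecular identifiers and strand are not described, so precision from depth covers counting error only. Per the submitters' processing notes, the build was mm10 and the tools included HTSeq, DESeq2, Cufflinks 2.1.1 and Bowtie 0.12.9, in no stated order or role. The deposited table holds a signal per gene that is not per length, although it is named as FPKM. In each library all values were whole multiples of 1 step, within 0.01, so the signal is a read count that the authors divided by 1 factor. Dividing by the step gave 20.8 to 30.1 M reads per library.

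Only the 5 floxed control libraries were used. Genes were ranked by mean signal, shares of reads were summed over 30 gene classes, and the CV was the SD over the mean at a mean of at least 100. The counting CV is the square root of the mean step over the mean. Lengths, positions and GC content came from GENCODE M21, which matched 49706 of 52171 symbols. Nothing was tested, since 1 group is described. The class lists, members and thresholds were chosen with earlier results of these data known. Genes named are the 7 given markers, those with the most reads or the highest or lowest CV, leaders of each class and list, and panels of sort gate, MLL fusion, transcription factor and receptor genes. Others were chosen after their values were seen: Gapdh, Cd68, Cxcr2, the complement, Hspa1b and Jun values, the repeat-rich stretches and the genes just inside or outside a threshold. The CV and its counting part were checked on simulated counts. Alternatives were other scalings, filters, measures of spread, reads per kilobase, no mitochondrial genes and leaving out each library. Python 3.11.15, pandas 2.3.3, matplotlib 3.10.9, R 4.3.3 and edgeR 4.0.16 (TMM scaling) were used.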

Additional observations from a re-analysis of the deposited data

Results flagged for a closer look

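A library was set apart when its gap to the nearest of the other 4 exceeded 0.71 of the whole range of the 5, by Dixon's criterion. Chance gives about 1 such flag in 20 sets of values. Among the 211 genes examined 12 met it (5.69%), and among all genes with a mean of at least 100, 433 did (4.83%). Library 3 stood above the others in Cebpa at 209 normalized reads, in the stem cell factor gene Erg at 234, in the ribosome biogenesis gene Nop10 at 3613, in Cstdc4 at 1592 and in Stfa2l1 at 250.3. Cebpa lies in the richest bin by GC content, in which the median deviation of library 3 was 0.24. Library 4 stood above the others in Ifngr1 at 29861.5 and in the lysosomal mannosidase gene Man2b1 at 26831. In library 5, Clec11a was high at 356 and Manba, a further lysosomal mannosidase gene, at 944, while Men1 was low at 661. In library 1, Irf8 was high at 1532, and Nfkbia, the inhibitor gene of NF-kappaB, was low at 2173. Of the 29 classes examined, library 5 stood apart in the share of immunoglobulin and T cell receptor gene segments, 0.0237%, and library 2 in the share of chaperone genes, 2.53%. The globin genes, with no member at a mean of at least 100, were not among the 29. Their share was highest in library 1, at 0.000208%. Manba was nevertheless among the genes of smallest CV, at 1.5%, below its counting CV of 3.36%.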

How the results depend on the processing

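No paired analysis was possible because a single group is described and no test was made. With reads per kilobase in place of reads, 38 genes held 50% of the total. The shares then became 13.7% for azurophil granule, 9.57% for ribosomal protein, 17.2% for secondary and tertiary granule, 6.23% for cytoskeleton, 6.78% for mitochondrially encoded, 1.81% for translation factor, 1.04% for glycolysis and 1.27% for chaperone genes. The secondary and tertiary granule list thus led the azurophil granule list per kilobase. It counts S100a8 and S100a9, which had the most reads per kilobase after Elane, 773657 and 521507. The order of the lists without these genes was not computed. Without mitochondrially encoded genes the cytoskeleton share was 8.0%. Genes of high spread numbered 399 at a mean of at least 20, 23 at a mean of at least 500 and 22886 with no filter. By other scalings they numbered 71 to 81, of which 64 to 71 were among the 73. By the median absolute deviation they numbered 64, of which 27 were among the 73. Leaving out each library gave 64 to 97 genes of high spread, with 38 of the 73 kept without library 1, and 3441 to 4034 of low spread. Centering by GC content gave 86 and 3970, against 89 and 3386 before it by the same log2-based CV of 8761 genes. Mean levels of the 98 genes examined moved by less than 1 SD in all 882 recomputed values. Of 154 shares of smaller classes 138 did so, and 15 of the 16 others were per kilobase. Leaving out 1 of 5 libraries cannot move a mean by 1 SD. The values recomputed in that way, which are part of both sets, therefore could not have failed. Depth limits single values at low levels, since counting error alone gives a CV of 10.2% at a mean of 100.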

Other observations

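Several smaller classes complete the picture of these cells. Long noncoding RNA genes held 0.196 ± 0.0304% of reads, led by Malat1, a nuclear RNA, and the 17 with a mean of at least 100 had a median CV of 18%. Type I interferon response genes held 0.0772 ± 0.0108%, and 23 of 41 had a mean of at least 100. Their shares by library were 0.0773, 0.0599, 0.088, 0.0845 and 0.0763%, lowest in library 2. Nuclear pore genes held 0.137 ± 0.0063%, with 12 of 29 of low spread (41.4%, against 38.5% of all genes of that level). Histocompatibility class II genes held 0.0112 ± 0.00106%. Heme synthesis and iron genes held 0.608 ± 0.0255%, most of it from the ferritin light chain gene Ftl1, which read 118659, 110523, 131104, 134236 and 126297 normalized reads. Lysosomal genes held 1.01 ± 0.0519%, highest in library 4. Ybx1, the gene of an RNA-binding cold shock protein, lay just below the high threshold at a CV of 49.7%, although its level is high, with 8848, 12642, 31488, 32963 and 23309. Its libraries 1 and 2 were the low ones, as for the ribosomal protein genes. Cdkn2c, a cell cycle inhibitor gene, read 78.4, 428, 214, 259.9 and 291, with the low value in library 1 and the high one in library 2. These last genes were chosen after their values had been seen.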
